A study of Homo sapiens with 4 samples.

Results

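The genes described here are 10 chemokines that fibroblasts can make, 4 of the CC class (CCL2, CCL5, CCL7 and CCL20) and 6 of the CXC class (CXCL1, CXCL2, CXCL3, CXCL6, CXCL8 and CXCL12). They were chosen by name, and every probe set annotated to exactly 1 of these symbols was taken. This gave 13 probe sets of the 22277 on the array, for 10 of 11963 named genes. RNA came from BJ-TE cells, which go back to the human foreskin fibroblast line BJ, and each culture was measured on 1 Affymetrix array. The 4 groups of 1 array were p73 shRNA at 100% confluence, ns shRNA at 100% confluence, p73 shRNA at 40% confluence and ns shRNA at 40% confluence. The shRNA is a short hairpin RNA, directed against the transcription factor p73 or, for ns, used as the control. All cultures carried a hairpin and no cells without one were compared. The labels do not say how many hairpin sequences were used or which genes had been put into the line.

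Chemokines are small secreted proteins that bind membrane receptors on white blood cells and direct their movement. CXCL1, CXCL2, CXCL3, CXCL6 and CXCL8 carry the glutamate-leucine-arginine (ELR) motif ahead of their first cysteines and attract mainly neutrophils through the receptors CXCR1 and CXCR2. CXCL12 lacks that motif, is made constitutively by many stromal cells and acts through CXCR4. CCL2 and CCL7 attract monocytes, mainly through CCR2, CCL20 attracts CCR6-bearing lymphocytes and dendritic cells, and CCL5 attracts T cells and monocytes. In fibroblasts most of these genes are switched on by interleukin-1 or tumour necrosis factor through the transcription factor NF-kB.

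On the chromosomes the genes lie in groups. In the order of protein-coding genes on chromosome 4, CXCL8 is followed directly by CXCL6, and CXCL3 is followed directly by CXCL2. CXCL1 lies between PF4V1 and PF4 in the same cluster. CCL2 is followed directly by CCL7 on chromosome 17, while CCL5 lies elsewhere on that chromosome. CCL20 is on chromosome 2 and CXCL12 on chromosome 10.

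The upstream sequences of the ELR genes are shown because the 5 genes share a short NF-kB motif at nearly the same distance from their start. Their changes between the stages of confluence differed, and a link of these changes to the motif was not tested. RefSeq upstream sequences (GRCh38.p14) were at hand for 8 of the 10 genes, the others being CCL2 and CCL5. The 9-letter motif GGAATTTCC, searched on both strands in the 250 bases before the start, was found in CXCL6, CXCL8, CXCL1, CXCL2 and CXCL3. It occurs in 0.413% of all 35116 upstream sequences, a share given for scale. This is no test of enrichment, since the motif was picked by hand and the CXCL1, CXCL2 and CXCL3 sequences are much alike. The sequences below have the motif in capitals with 26 bases on either side, and CCL20 is added because it holds the longer NF-kB consensus, read on the opposite strand.
CXCL6 (chr4:73836563-73836623, plus strand): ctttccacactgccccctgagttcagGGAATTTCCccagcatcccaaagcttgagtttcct
CXCL8 (chr4:73740452-73740512, plus strand): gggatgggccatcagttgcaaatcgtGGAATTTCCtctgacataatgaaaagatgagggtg
CXCL1 (chr4:73869289-73869349, plus strand): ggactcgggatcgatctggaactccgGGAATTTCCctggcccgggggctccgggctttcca
CXCL2 (chr4:74099238-74099298, minus strand): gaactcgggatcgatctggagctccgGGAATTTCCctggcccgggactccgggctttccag
CXCL3 (chr4:74038733-74038793, minus strand): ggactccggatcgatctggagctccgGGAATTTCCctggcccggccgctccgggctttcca
CCL20 (chr2:227813737-227813798, plus strand): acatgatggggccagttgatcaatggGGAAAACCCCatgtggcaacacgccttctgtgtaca

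In these windows the motif began 91 bases before the start in CXCL8, 89 in CXCL6, 78 in CXCL1 and CXCL3 and 77 in CXCL2. Over the whole window, the motif included, CXCL1 and CXCL3 were alike at 57 of 61 bases and CXCL1 and CXCL2 at 49 of 61. CXCL6 and CXCL8, although next to each other, were alike at 18 of 61, a count that again includes the shared motif. The longer NF-kB consensus, which overlaps the short motif, was present upstream of CCL20, CXCL6, CXCL1, CXCL2 and CXCL3, against 5.21% of all upstream sequences. The AP-1 motif TGANTCA was present upstream of CXCL8 and CCL7, against 6.57%, and the hypoxia factor core ACGTG was not found within these 250 bases for any of the 8 genes, against 18.5%. A match is a stretch of letters and was not tested as a binding site.

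Across the arrays the cells had the profile of fibroblasts. All 12 fibroblast markers listed lay above the brightness filter, a mean log2 value of at least 6.94 or an intensity of about 111. Of the measured markers of other cells, 1 of 10 for leukocytes (LAPTM5), 1 of 8 for endothelium (ENG) and 1 of 7 for epithelium (KRT18) did so. The leukocyte antigen PTPRC lay between intensities of 3.37 and 35.2. TP73, the target of the hairpin, had a single named probe set at the bottom of the range, with intensities of 2.04 with p73 shRNA and 1.65 with ns shRNA at 100% confluence and 2.09 and 1.68 at 40%, so it does not check which arrays carried the p73 hairpin. Median intensity was 120 with p73 shRNA and 122 with ns shRNA at 100% confluence, against 105 and 106 at 40%. The 99th percentile was highest on the p73 shRNA array at 40% confluence, at 13157, against 10196 to 11420 on the other arrays.

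Of the 13 chemokine probe sets, 10 lay above the brightness filter, which covered 8 of the 10 genes. CCL5 and CCL20 did not pass and were not tested. Levels are given as intensity, the brightness of a probe set after the authors' scaling, and differences as log2 ratios of intensity + 11.6. Intensities of different probe sets are not comparable with each other, so the changes of each chemokine were taken within a probe set. Sums over marker lists, given later, are weighted towards the brightest probe sets.

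**Figure D1:**
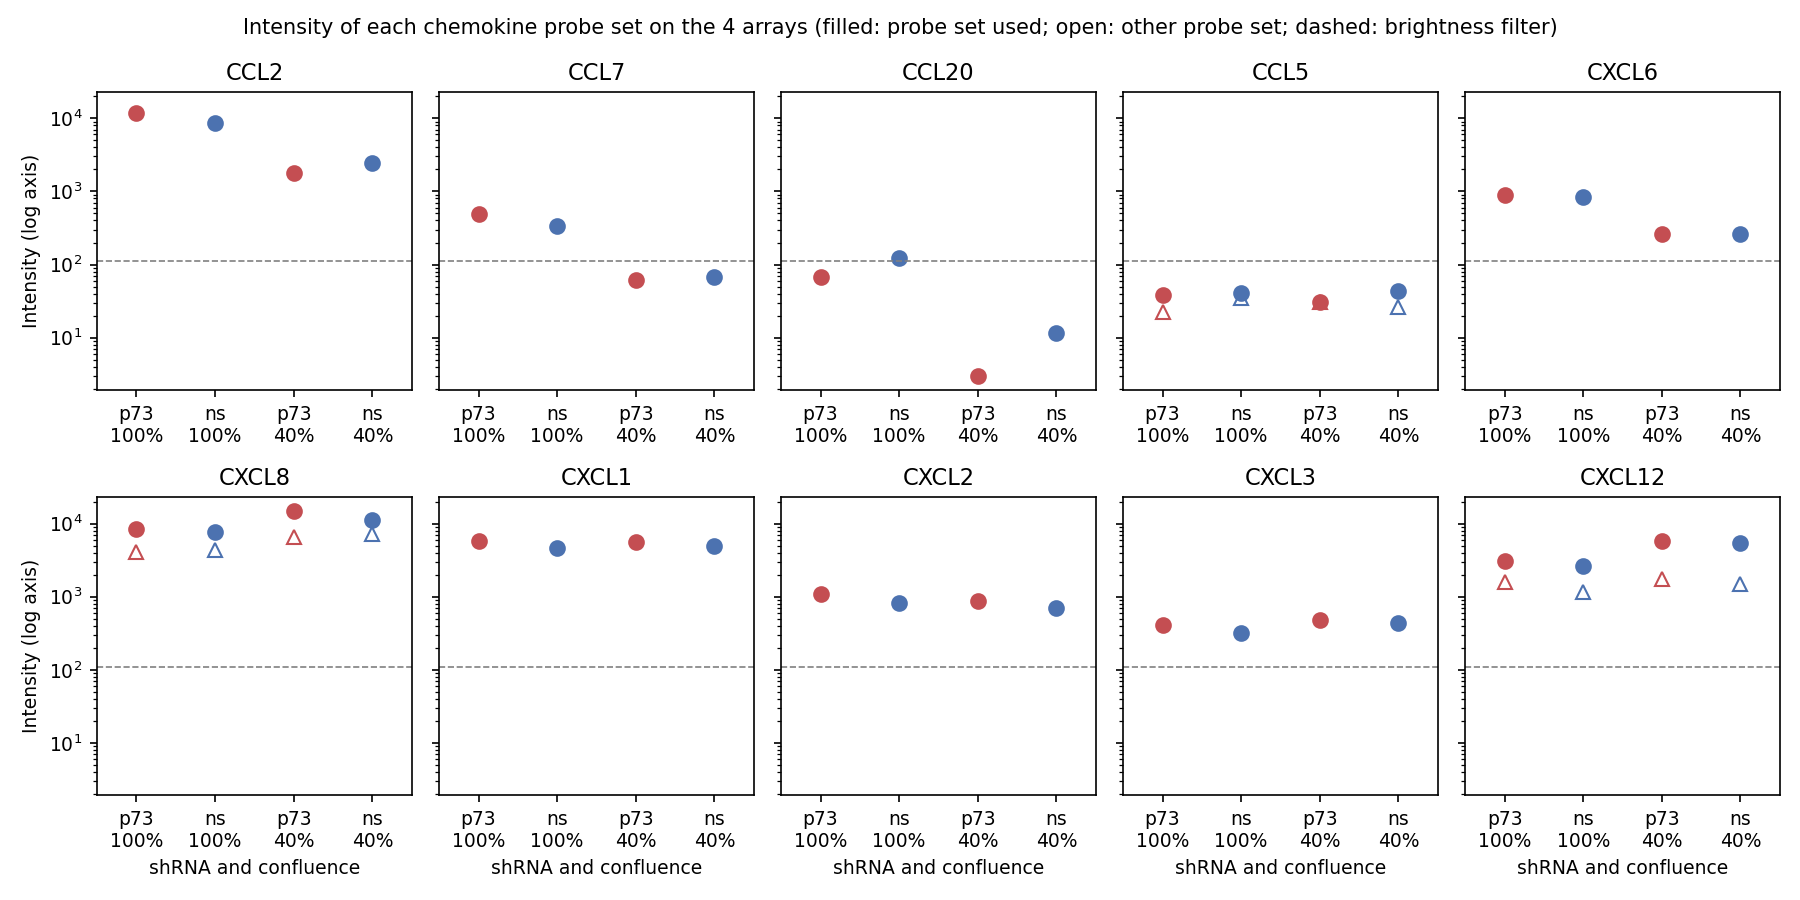
Intensity (log axis) of the 13 chemokine probe sets on the 4 arrays, 1 panel per gene, with p73 shRNA in red and ns shRNA in blue. Filled circles are the brightest probe set of a gene, open triangles any other, and the dashed line is the brightness filter at an intensity of about 111. On the brightest probe set, CCL2, CCL7 and CXCL6 are higher on both arrays at 100% confluence than on both at 40%, and CXCL8 and CXCL12 are lower. The other CXCL12 probe set overlaps between the stages, and CCL5 stays under the filter.

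The stage of confluence is the contrast that the design text names, and here the hairpins served as its repeats. The monocyte attractants CCL2 and CCL7 and the neutrophil attractant CXCL6 rose at confluence, by average log2 changes of 2.27, 2.44 and 1.68. CXCL8 and CXCL12 fell by 0.68 and 0.97 on the log2 scale. CXCL1, CXCL2 and CXCL3 did not pass the test. Counted over the 8 genes above the filter, 3 rose, 2 fell and 3 did not pass (limma, Benjamini-Hochberg adjusted p below 0.05 over 6759 genes), where 20.4% of all genes tested were called higher and 16.1% lower, 36.6% in all. The arrays of the stages did not overlap for 6 of these 8 genes, where 64.5% of all genes tested had no overlap. Without the intensity trend the same 5 genes were called, with 30.6% of genes called in all. That fit still gives a gene's own spread little weight, with 1 residual against 15.8 prior degrees of freedom. CCL7 reached the filter only through its confluent arrays and had to differ, so it adds nothing to these counts. Without it, 2 rose, 2 fell and 3 did not pass, and the stages did not overlap for 5 of 7.

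CCL2, also called monocyte chemoattractant protein-1, had intensities of 11754 with p73 shRNA and 8674 with ns shRNA at 100% confluence, against 1777 with p73 shRNA and 2457 with ns shRNA at 40%. Both confluent arrays were far above both arrays at 40%, and the order of the hairpins turned between the stages. The intensity ratio was 6.61-fold with p73 shRNA and 3.53-fold with ns shRNA. The average log2 change was 2.27 (SE 0.14, limma adjusted p 5.57e-56), the 27th highest of 6759 genes. Without the trend its limma adjusted p was 5.03e-07. CCL7, a close relative of CCL2 and its neighbour on chromosome 17, had intensities of 486 with p73 shRNA and 334 with ns shRNA at 100% confluence, against 62.4 and 66.7 with the same hairpins at 40%. The values at 40% lay under the filter level, so its change depends on dim readings. Its log2 ratio was 2.75 with p73 shRNA and 2.14 with ns shRNA (average 2.44, SE 0.27, limma adjusted p 3.84e-18, and 8.26e-08 without the trend), given as a description since the filter favoured it.

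CCL20 had the same order but was dim. Its intensities were 68.4 with p73 shRNA and 125 with ns shRNA at 100% confluence, against 2.96 with p73 shRNA and 11.6 with ns shRNA at 40%, the last pair at the 5.98th and 21.2nd percentile of their arrays. Only 1 of the 4 arrays exceeded the filter level, so no fold is given. With all 11963 genes tested and no filter its limma adjusted p was 0.00745, in a fit that called 7.62% of genes higher. That value sets the confluent arrays against readings near or under the pseudocount of 11.6, so it is no measure of a change. CCL5 gave no usable signal: its 2 probe sets lay between intensities of 22.3 and 41.1 on the confluent arrays and between 26.3 and 43.4 on the others. The ranges overlap, and no array exceeded the filter level.

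Among the ELR chemokines, CXCL6, also called granulocyte chemotactic protein-2, was the one that rose. It had intensities of 884 with p73 shRNA and 843 with ns shRNA at 100% confluence, against 261 and 264 with the same hairpins at 40%. The hairpins gave nearly equal values at each stage, and the stages did not overlap. The ratio was 3.39-fold with p73 shRNA and 3.20-fold with ns shRNA, and the average log2 change was 1.68 (SE 0.19, limma adjusted p 1.14e-16, and 2.39e-06 without the trend).

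CXCL8, interleukin-8, moved the other way. Its brightest probe set (202859_x_at) had intensities of 8341 with p73 shRNA and 7773 with ns shRNA at 100% confluence, against 14898 and 11192 with the same hairpins at 40%. A second probe set (211506_s_at) had 4120 and 4393 at 100% confluence, against 6600 and 7259 at 40%, so both placed each confluent array under each array at 40%. The average log2 changes were -0.68 (SE 0.14, limma adjusted p 5.91e-06, and 0.0083 without the trend) and, with every probe set tested on its own, -0.70 for the second (SE 0.14, limma adjusted p 7.61e-06), a fit that called 35.4% of probe sets. The p73 shRNA array at 40%, where the first of these probe sets was brightest, is also the array with the brightest top end, while the second was brightest on the ns shRNA array at 40%. After quantile normalization the change of the first was -0.48 (limma adjusted p 0.00147, with 16.1% of genes called lower).

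CXCL1, CXCL2 and CXCL3, known as the GRO chemokines, are close paralogues, so their probe sets may take up signal from each other. CXCL1 had intensities of 5823 with p73 shRNA and 4616 with ns shRNA at 100% confluence, against 5630 and 4923 with the same hairpins at 40%, and the stages overlapped. CXCL2 had 1076 and 829 at 100% confluence, against 879 and 698 at 40%, again overlapping. CXCL3 had 414 with p73 shRNA and 315 with ns shRNA at 100% confluence, against 479 and 431 at 40%. Both confluent arrays of CXCL3 were lower. The average log2 changes were -0.02 for CXCL1 (95% interval -0.29 to 0.25, limma adjusted p 0.923), 0.27 for CXCL2 (-0.06 to 0.60, limma adjusted p 0.211) and -0.32 for CXCL3 (-0.71 to 0.07, limma adjusted p 0.201). These intervals do not show that the 3 genes stayed constant, but none reaches the change of CXCL6.

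CXCL12, the stromal cell-derived factor, had intensities of 3078 with p73 shRNA and 2599 with ns shRNA at 100% confluence, against 5689 and 5400 with the same hairpins at 40%, on its brightest probe set (209687_at). The stages did not overlap, and the average log2 change was -0.97 (SE 0.14, limma adjusted p 1.74e-10, and 0.000605 without the trend). The other CXCL12 probe set (203666_at) had 1579 and 1173 at 100% confluence, against 1759 and 1474 at 40%. Its ranges overlap between the stages, and its change of -0.24 did not pass (SE 0.15, limma adjusted p 0.213, every probe set tested). The 2 probe sets thus had the same direction but disagreed on the size, and the fall of CXCL12 rests on the brighter one.

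**Figure D2:**
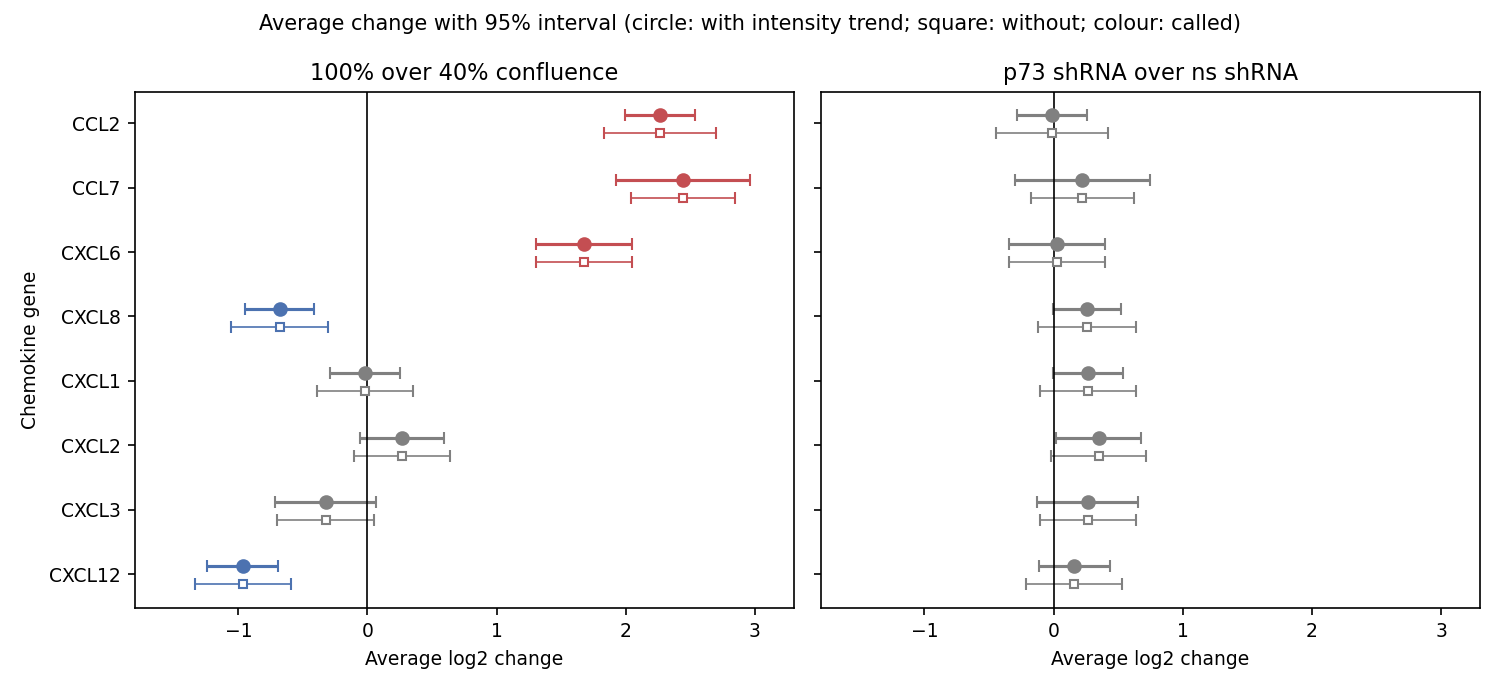
Average log2 change (x axis) of the 8 chemokine genes above the filter, for 100% over 40% confluence (left) and p73 over ns shRNA (right), with 95% intervals from limma with the intensity trend (circles) and without it (squares). Red marks genes called higher and blue genes called lower. CCL2, CCL7 and CXCL6 lie at 1.68 or more at confluence, CXCL8 and CXCL12 lie under 0, and no gene is called for the hairpin.

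Other measures moved with the stages too. Fibroblast markers were higher at confluence for 7 of 12 genes and lower for 2, where 20.4% of all genes tested were called higher and 16.1% lower. The matrix proteoglycans DCN (average log2 2.36) and LUM (2.13), named after their values were seen, had the largest changes among them, and the call of VIM, 1 of the 2 lower ones, was lost without the trend. The summed intensity of the 12 was 94272 with p73 shRNA and 88980 with ns shRNA, against 84596 and 75993 at 40%. On each array VIM, COL1A1, COL1A2 and FN1 made up most of this sum, and none of them was among the 7. The summed intensity of the 10 measured leukocyte markers was 958 and 1070 at 100% confluence, against 915 and 749 at 40%, of which LAPTM5 made up most. The 3' to 5' ratio of the beta-actin control, a measure of RNA integrity, was 1.38 with p73 shRNA and 1.47 with ns shRNA at 100% confluence, against 1.09 and 1.24 at 40%. The same ratio of the GAPDH control lay near 1 on every array, at 1.02 with either hairpin at 100% confluence. At 40% it was 0.98 with p73 shRNA and 0.93 with ns shRNA. Their part in the chemokine changes was not tested. Fewer cells making a chemokine and less RNA per cell cannot be told apart in these pooled cultures.

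Of the 34 other chemokines listed, 25 had a named probe set and 1 of these lay above the filter, CXCL5, an ELR chemokine between PPBP and CXCL3 on chromosome 4. CXCL5 had intensities of 1628 with p73 shRNA and 1503 with ns shRNA at 100% confluence, against 1077 and 1648 with the same hairpins at 40%, and its average log2 change of 0.23 did not pass (SE 0.15, limma adjusted p 0.246). None of the 21 measured chemokine receptors lay above the filter. CXCR2, the receptor of the ELR chemokines, lay between intensities of 3.38 and 22.1, and CXCR4, the receptor of CXCL12, between 6.99 and 30.9. A gene under the filter is not shown to be absent.

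The inducers and signalling genes upstream of chemokine transcription were counted next, from lists chosen with earlier results of these arrays known. Of 18 such genes above the filter, 10 rose at confluence, 3 fell and 5 did not pass, with a median log2 change of 0.61 beside 0.01 over all genes tested, of which 20.4% were called higher and 16.1% lower. The same shares stand beside the counts of the lists that follow. Of the called genes, IL1RAP and REL, which rose, lay under the filter level on the p73 shRNA array at 40% (55.8 and 74.6). TRAF6, which fell, did so on the p73 shRNA array at 100% confluence (81.7). The filter may have favoured such genes, so they add little to the counts. IL1B, the cytokine interleukin-1 beta, had intensities of 3658 with p73 shRNA and 3154 with ns shRNA at 100% confluence, against 816 and 803 with the same hairpins at 40% (average log2 2.05, SE 0.15, limma adjusted p 8.22e-39). Its receptor IL1R1 rose by an average log2 of 1.37, the transcription factor CEBPD by 2.44 and the NF-kB subunit NFKB2 by 1.36. The NF-kB subunit RELA had 827 and 839 at 100% confluence, against 758 and 779 at 40%, and did not pass (average log2 0.12, limma adjusted p 0.636). TNF was below the filter.

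Among genes listed as inhibitors or feedback genes of NF-kB, not all of them known to be induced by it, 5 of 7 rose and 2 did not pass. Their median log2 change was 0.70. Of those 2, NFKBIB (average log2 -0.65, limma adjusted p 0.0542) was called lower without the trend (0.0243) and after quantile normalization (0.0259), while the call of NFKBIA was lost without the trend (0.117). The inhibitor NFKBIE averaged 0.95, TNIP1 0.88, the ubiquitin-editing enzyme TNFAIP3 0.72 and the early response gene IER3 0.70. Of 6 regulators of the decay of unstable mRNAs, which include many chemokine mRNAs, ZFP36L1 (average log2 0.73) and ZFP36L2 (0.46) rose, HNRNPD (-0.38) fell and 3 did not pass. The calls of ZFP36L2 and HNRNPD were lost without the intensity trend (limma adjusted p 0.0587 and 0.118), and that of HNRNPD also after quantile normalization (0.0593). Of 6 factors often secreted or displayed with chemokines, CSF3, a granulocyte growth factor (average log2 1.71, above the filter only through its confluent arrays), PTGS2, the inducible prostaglandin synthase (1.38), and ICAM1, a leukocyte adhesion molecule (0.91), rose and 3 did not pass. CSF3 had intensities of 71.9 with p73 shRNA and 73.4 with ns shRNA at 40%. The filter favoured it, so it adds nothing to this count. IL6 was among the factors that did not pass. Its intensities were 3501 with p73 shRNA and 3155 with ns shRNA at 100% confluence, against 3778 and 2845 at 40%.

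Of 9 genes whose products cut chemokines or hold them at the cell surface, 3 rose, 3 fell and 3 did not pass. DPP4, a peptidase that trims the start of CXCL12 and other chemokines, had intensities of 997 with p73 shRNA and 761 with ns shRNA at 100% confluence, against 315 and 288 with the same hairpins at 40% (3.16-fold with p73 shRNA and 2.65-fold with ns shRNA, limma adjusted p 6.91e-14). The matrix protease MMP3 fell by 1.60 on the log2 scale, the heparan sulphate proteoglycan SDC3 rose by 1.02 and its relative SDC2 fell by 0.82. MMP2, the smallest of the rises (average log2 0.38, limma adjusted p 0.0241), lost its call without the trend (0.123).

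**Figure D3:**
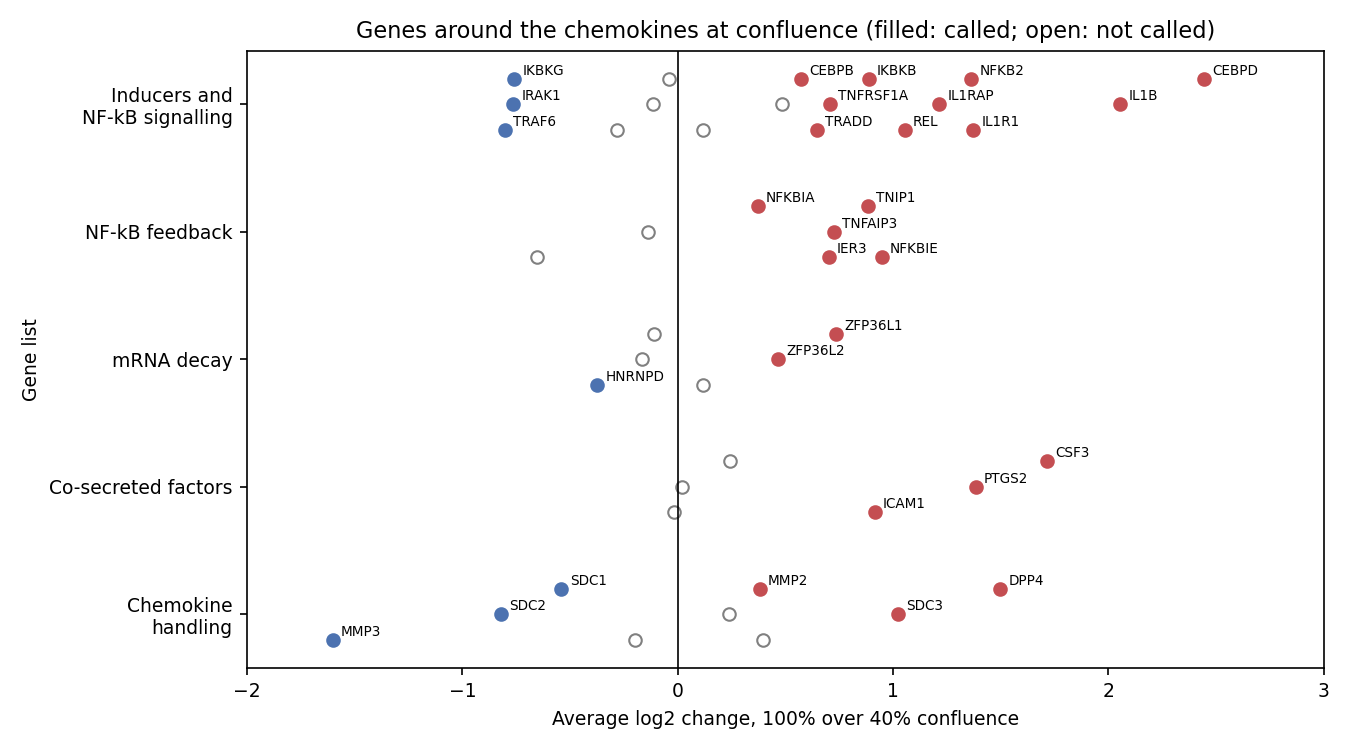
Average log2 change for 100% over 40% confluence (x axis) of the genes above the filter in the 5 lists around the chemokines (y axis; vertical shifts within a list only separate the points). Filled points were called by limma, red for higher and blue for lower, and open points were not. CEBPD and IL1B lie furthest to the right at 2.44 and 2.05, and MMP3 furthest to the left at -1.60.

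The second comparison set the p73 hairpin against the ns hairpin, with the stages as repeats. None of the 8 chemokine genes above the filter passed the test (limma, Benjamini-Hochberg adjusted p below 0.05), where 2.72% of all genes tested were called, 1.14% higher and 1.58% lower. Without the trend the share was 1.09% of genes and with every probe set tested 2.71%, again with no chemokine among them. At an unadjusted p below 0.05 there was 1, CXCL2 (p 0.0372, adjusted p 0.325, limma), where 13.6% of all genes tested had such a p, and without the trend its unadjusted p was 0.0625. On the probe set used for each gene, CXCL1, CXCL2, CXCL3, CXCL8 and CXCL12, 5 of the 8, were higher with p73 shRNA at both stages. Of all genes tested 29% were. These ratios were small, the highest being 0.41. The other CXCL8 probe set was lower with p73 shRNA at both stages, so the place of CXCL8 in this count is not firm.

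The name of the CXCL2 probe set marks it as open to binding other transcripts, as do those of CXCL5 and of the brighter CXCL8 probe set. For CXCL2 the log2 ratio was 0.37 at 100% confluence and 0.33 at 40% (average 0.35, 95% interval 0.02 to 0.68). CXCL1 had 0.33 and 0.19 at the same stages (average 0.26, -0.01 to 0.53, limma adjusted p 0.384), and CXCL3 had 0.38 and 0.15 (average 0.27, -0.13 to 0.66, limma adjusted p 0.627). The highest of these upper bounds is 0.68, and without the trend it was 0.72, both for CXCL2. Either fit shares error between genes, so these bounds are no firm limit on a rise of the 3 GRO genes.

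The probe sets of CXCL8 disagreed on the hairpin. The brighter one had log2 ratios of 0.10 at 100% confluence and 0.41 at 40% (average 0.26, limma adjusted p 0.387), and the other had -0.09 and -0.14 (average -0.11, limma adjusted p 0.806, every probe set tested). No direction can therefore be given for CXCL8. For CXCL12 both probe sets were higher with p73 shRNA, by 0.24 at 100% confluence and 0.08 at 40% on the brighter one and by 0.43 and 0.25 on the other, with limma adjusted p of 0.705 and 0.263 when every probe set was tested.

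CCL2 and CCL7 had ratios of opposite sign. CCL2 was higher with p73 shRNA at 100% confluence, at 11754 against 8674 with ns shRNA, and lower at 40%, at 1777 against 2457. Its average was therefore -0.01 (SE 0.14, limma adjusted p 0.989). That SE is shared by genes of equal brightness and does not measure the distance between the ratios at the stages. Without the trend it was 0.21, and neither value shows that the hairpin left CCL2 unchanged. CCL7 had log2 ratios of 0.53 at 100% confluence and -0.08 at 40% (average 0.22, limma adjusted p 0.809). The confluence change of CCL2 was thus larger with p73 shRNA by 0.90 on the log2 scale, and 3.62% of the genes tested had a larger absolute difference. That of CCL7 was larger by 0.61, with 12.2% of genes beyond it. With 1 array in each group this difference has no test. CXCL6 had ratios of 0.07 at 100% confluence and -0.02 at 40% (average 0.03, limma adjusted p 0.98).

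**Figure D4:**
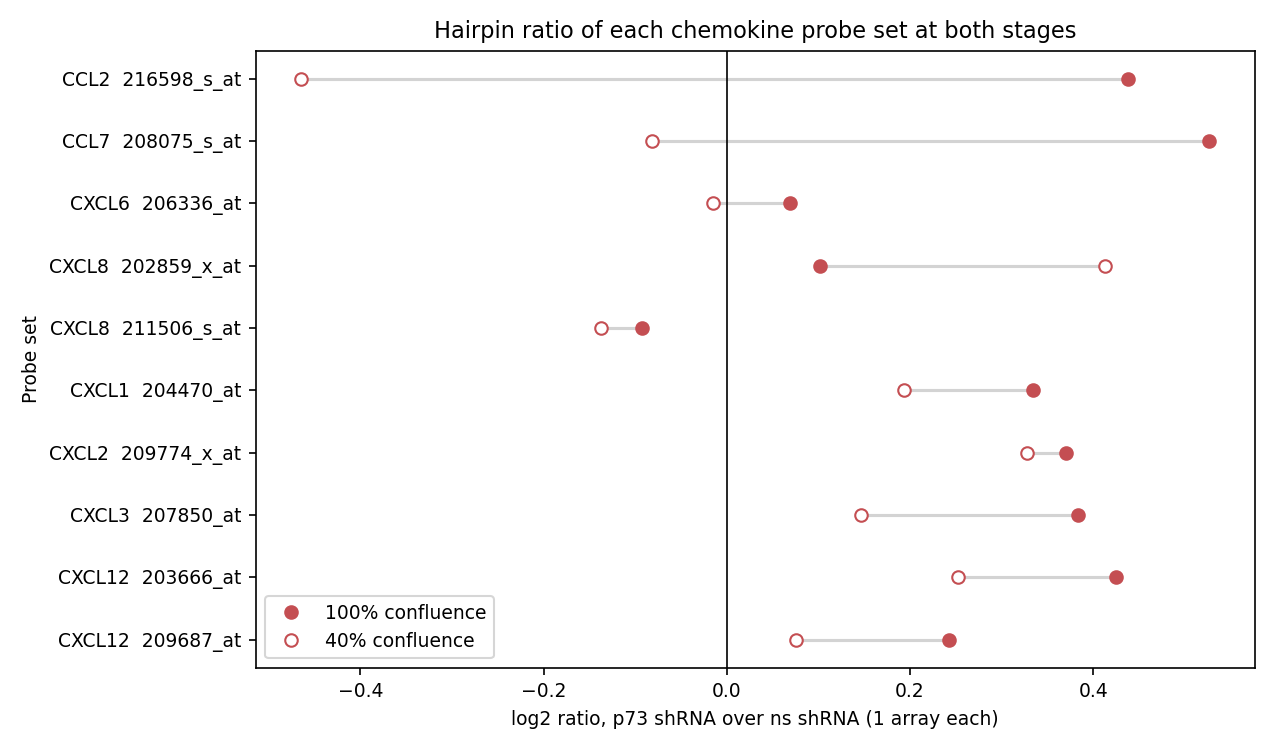
log2 ratio of p73 over ns shRNA (x axis) for the 10 chemokine probe sets above the filter (y axis), at 100% confluence (filled) and 40% confluence (open). CCL2 and CCL7 have their filled points at 0.44 and 0.53 and their open points under 0, and the probe sets of CXCL8 lie on opposite sides of 0.

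The pathway lists around the chemokines gave few calls for the hairpin. Of the 18 inducers and signalling genes, the 7 inhibitors and feedback genes, the 6 decay regulators and the 9 handling genes none passed (limma, adjusted p below 0.05), with medians of 0.01, 0.27, 0.07 and 0.15 beside 0.00 over all genes. Of the 6 co-secreted factors PTGS2 fell, with intensities of 935 with p73 shRNA and 1448 with ns shRNA at 100% confluence, and of 314 with p73 shRNA and 611 with ns shRNA at 40% (average log2 -0.78, SE 0.17, limma adjusted p 0.00111, and 0.0419 without the trend). Of the 12 fibroblast markers 4 were called for the hairpin, against 2.72% of all genes tested. LUM (average log2 -1.34, limma adjusted p 4.84e-16) and PDGFRA (-0.58, 0.00815) were lower with p73 shRNA, THY1 (0.49, 0.0327) and VIM (0.51, 0.0091) were higher, and without the trend only LUM was called (0.00512). Their part in the chemokine values was not tested.

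The genes whose profile over the 4 arrays lay nearest to CCL2 were INSIG1, TMT1A and IL1B, with Euclidean distances of 0.38, 0.42 and 0.43 between centred log2 values. For CXCL8 they were REX1BD, GADD45GIP1 and EXOG (0.03, 0.04 and 0.06), and for CXCL12 they were COA4, HNRNPAB and DUSP14 (0.05, 0.07 and 0.08). With 4 arrays such likeness is a description, since many genes share a similar set of 4 values.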

How the data were processed

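The intensities are those deposited by the authors for 4 arrays, 1 per group, from biotin-labelled RNA, per the labels. Which software summarised and scaled them is not stated by any label or header. They are linear. With the top and bottom 2% removed, the arrays average 500.1 to 500.2, so they were used as scaled. Of 22277 probe sets 62 were controls, and 19064 had 1 gene symbol, of which 19052 were matched by Entrez ID.

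Values were converted to log2(intensity + 11.6), 11.6 being the 20th percentile, which understates ratios of dim genes. A gene took its brightest probe set, and the 6759 genes with a mean log2 of at least 6.94, the median probe set, were kept. The model was limma 3.58.1 (R 4.3.3), additive in confluence and shRNA, with an intensity trend. Tests were two-sided, with p-values adjusted over these genes by Benjamini-Hochberg. It has 1 residual degree of freedom, and the trend gave infinite prior degrees of freedom, so genes of equal brightness share an error. Without the trend they were 15.8, and that adjusted p is given beside the chemokine calls and wherever a named list gene lost its call. Nothing states separate cultures or repeats. The residual is the difference between the hairpins in their confluence response. The p-values therefore mix any real difference of that kind with array-to-array spread, which may be technical. A run on simulated data took its noise from the fitted error itself. It therefore cannot check that shared error or the p-values.

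The chemokines, lists and motifs were chosen with earlier results of these data known. Named are all chemokines of the set, pathway list genes called in either comparison (the 4 largest where more were called) and the 3 nearest profiles of CCL2, CXCL8 and CXCL12. Others, such as RELA, REL, IL1RAP, TRAF6, IL6, TNF, MMP2 and the fibroblast markers, were named after their values were seen. Upstream sequences are from RefSeq (GRCh38.p14). Alternatives were quantile normalization, other pseudocounts, filters and probe set rules, no trend, and a model without the other factor. Figures used matplotlib 3.10.9.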

Additional observations from a re-analysis of the deposited data

Results flagged for a closer look

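In 3 genes the ratio of p73 over ns shRNA had opposite signs at the stages, and these differences were not tested. For CCL2 the log2 ratio was 0.44 at 100% confluence and -0.46 at 40%. For CCL7 it was 0.53 at 100% confluence and -0.0817 at 40%, where both arrays lay under the filter level. For CXCL6 it was 0.0689 at 100% confluence and -0.0152 at 40%. CXCL1 had opposite signs in the change with confluence, with a log2 ratio of 0.0486 with p73 shRNA and -0.0928 with ns shRNA, also not tested. The median absolute difference between such ratios over all genes tested was 0.24, which is exceeded by CCL2 and CCL7 and not by CXCL1 or CXCL6.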

How the results depend on the processing

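No paired analysis was possible because each group held 1 array and the groups share no replicate number; the model already holds the other factor. The chemokine genes called at confluence numbered 4 to 6 over all alternatives. CCL2, CXCL6, CXCL8 and CXCL12 were called in each of them, CCL7 was not tested with the filter at the 70th percentile, and CCL20 was added without the filter. The single call lost was that of the second CXCL12 probe set (-0.24, limma adjusted p 0.213), and the mean of both gave -0.60 (0.00181). For the hairpin 0 were called in every alternative by limma, with lowest adjusted p 0.263 for CXCL12 and 0.276 for CXCL2. Quantile normalization turned the sign of the uncalled CXCL1 change at confluence (0.05), and the second CXCL8 probe set that of the hairpin ratio (-0.11). Over all genes, limma called 2471 at confluence, against 1555 without the filter, 1345 with shRNA left out of the model and 3935 of 11108 with every probe set. For the hairpin it called 184, against 105 after quantile normalization, 74 without the trend, 40 with the mean of probe sets, 4 without the filter, 0 with confluence left out (58 at an unadjusted p below 0.05) and 301 with every probe set. IL1RAP, named after its value was seen, was called lower with p73 shRNA without the trend (-0.88, limma adjusted p 0.0176, against 0.0742 with it). Signal over background limits CCL5, CCL7 and CCL20.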

Other observations

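CCL8 and CCL11, named here after their values were seen, lie near CCL2 and CCL7 on chromosome 17 and were below the brightness filter. CCL8 had intensities of 79.4 with p73 shRNA and 117 with ns shRNA at 100% confluence, against 1.65 and 18.9 with the same hairpins at 40%. CCL11 had 61.3 and 75.8 at 100% confluence, against 4.06 and 18.9 at 40%. Both genes were brighter on the confluent arrays, and neither was tested. CXCL10, an interferon-induced chemokine, also below the filter, had 200.3 with p73 shRNA and 49.5 with ns shRNA at 100% confluence, against 45.6 and 38.9 at 40%. The value on the p73 shRNA array at 100% confluence stood apart from the other 3.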
